A study of Mus musculus with 22 samples.

Results

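Keratin genes were followed from pluripotent stem cells of the mouse into osteoblast cultures grown from them. Every row of the authors' 3 comparison tables whose gene symbol is Krt followed by a plain number was taken, which gave 44 genes of 20206 in all. Of these, 42 stood among the 19781 genes of the tables on embryonic stem cells (ESC), 33 among the 19057 genes of the table on induced pluripotent stem cells (iPSC), and 31 in both. They were sorted by the tissue each keratin is known from into 6 simple, 18 stratified and 18 hair-type keratins, and 2 others, Krt80 and Krt222. By protein type, 25 are acidic type I and 19 are basic or neutral type II keratins. Keratins with a letter suffix (Krt6a, Krt6b, Krt33a and Krt33b) lie outside the rule and are given only as neighbours.

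RNA sequencing compared 5 groups of cells, all of lines with the Col2.3GFP reporter, which places green fluorescent protein under part of the type I collagen promoter. The groups were GFP-positive cells sorted from ESC-derived osteoblast cultures (ESC-OB GFP+, 3 samples), those cultures unsorted (ESC-OB, 3), ESC (3), osteoblast cultures from iPSC (iPSC-OB, 2) and iPSC (2). The embryoid body stage lasted 6 days, without LIF, PD0325901 and CHIR99021 and with retinoic acid at 0.1 µM on days 3 to 5, and osteogenic medium followed up to 35 to 40 days. Passages were 20 to 30 for ESC and ESC-OB and 10 to 20 for iPSC and iPSC-OB, and none is given for the sorted cells. Stem cells grew on feeders or without them, a low-input library kit was used where RNA was scarce, and the labels assign neither to single samples. Calvarial osteoblasts (3 samples) and bone cells sorted as GFP-high or GFP-low (3 each) were not analysed here, since none of the tables compares them. The labels do not say that samples of a group came from separate cultures, so each p-value measures the spread between these samples only.

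Keratins are the intermediate filament proteins of epithelial cells. A filament needs both types, since 1 type I chain pairs with 1 type II chain, and cells tend to express fixed pairs. Krt8 with Krt18 is the pair of simple epithelia and the first to appear in the embryo, with Krt7, Krt19, Krt20 and Krt23 added in some glands, ducts and linings. Krt5 with Krt14 and Krt15 marks the basal layer of stratified epithelia, Krt4 with Krt13 the upper layers of wet linings such as the oesophagus, and Krt1 with Krt10 the upper layers of the epidermis. Krt16 and Krt17 belong to skin appendages and wounded skin. Hair-type keratins build the hair shaft and the sheaths around it. Osteoblasts are mesenchymal cells whose usual intermediate filament protein is vimentin, not a keratin.

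Nearly all keratin genes lie in 2 clusters, type I on chromosome 11 and type II, with Krt18 at its end, on chromosome 15. RefSeq held a promoter sequence for 30 of the 44 genes. The 250 bases before the start are printed for genes on which the results below turn. Krt8 and Krt18 are the neighbouring pair that rose in step, Krt7 and Krt20 are simple keratins, Krt13 is the stratified keratin without a smaller rise in iPSC-OB, and Krt42 is the keratin that fell. All are from build GRCm38.p6, 5′ to 3′ on the gene's own strand, and capitals mark matches to the motifs searched. The windows are Krt8 at chr15:102004343-102004592 (minus strand), Krt18 at chr15:102027966-102028215 (plus), Krt7 at chr15:101412153-101412402 (plus), Krt20 at chr11:99438154-99438403 (minus), Krt13 at chr11:100121567-100121816 and, for a second start, chr11:100120578-100120827 (both minus), and Krt42 at chr11:100269952-100270201 (minus).
Krt8: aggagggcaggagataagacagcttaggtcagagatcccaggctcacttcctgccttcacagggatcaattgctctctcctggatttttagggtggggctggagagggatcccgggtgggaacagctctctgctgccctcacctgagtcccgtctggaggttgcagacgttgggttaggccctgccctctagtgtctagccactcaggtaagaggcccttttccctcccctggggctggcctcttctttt
Krt18: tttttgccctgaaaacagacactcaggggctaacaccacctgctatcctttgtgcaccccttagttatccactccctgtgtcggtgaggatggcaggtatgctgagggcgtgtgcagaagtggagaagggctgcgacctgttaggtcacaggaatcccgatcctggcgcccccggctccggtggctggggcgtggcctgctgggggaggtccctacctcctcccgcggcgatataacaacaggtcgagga
Krt7: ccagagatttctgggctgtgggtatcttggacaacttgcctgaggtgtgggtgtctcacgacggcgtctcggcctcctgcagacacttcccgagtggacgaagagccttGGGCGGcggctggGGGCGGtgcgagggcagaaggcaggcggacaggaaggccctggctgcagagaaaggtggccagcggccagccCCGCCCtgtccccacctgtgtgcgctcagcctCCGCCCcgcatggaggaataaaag
Krt20: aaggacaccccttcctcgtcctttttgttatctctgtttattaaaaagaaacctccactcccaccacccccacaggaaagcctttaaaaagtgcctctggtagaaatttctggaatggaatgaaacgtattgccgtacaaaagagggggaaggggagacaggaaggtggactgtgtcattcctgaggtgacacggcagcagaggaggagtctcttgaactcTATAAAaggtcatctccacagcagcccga
Krt13, first start: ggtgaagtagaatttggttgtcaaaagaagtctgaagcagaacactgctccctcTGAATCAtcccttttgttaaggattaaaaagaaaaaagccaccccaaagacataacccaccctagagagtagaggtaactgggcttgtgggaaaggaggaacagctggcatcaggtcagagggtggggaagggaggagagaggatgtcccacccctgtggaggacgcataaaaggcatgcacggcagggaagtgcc
Krt13, second start: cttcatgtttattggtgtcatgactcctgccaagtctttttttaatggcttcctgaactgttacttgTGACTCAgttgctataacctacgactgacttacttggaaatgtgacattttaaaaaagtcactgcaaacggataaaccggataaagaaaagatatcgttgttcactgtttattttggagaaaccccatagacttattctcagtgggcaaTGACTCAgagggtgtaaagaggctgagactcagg
Krt42: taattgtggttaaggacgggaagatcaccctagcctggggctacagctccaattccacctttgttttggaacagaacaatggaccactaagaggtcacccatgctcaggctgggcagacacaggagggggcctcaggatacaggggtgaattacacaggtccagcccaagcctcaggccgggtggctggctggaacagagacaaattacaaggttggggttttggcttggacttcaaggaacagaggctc
The motifs were searched on both strands of 31 keratin windows and of 32851 promoters of that length in RefSeq. TATAAA, the core promoter box of that name, was in 13 keratin windows and in 12.4% of all promoters. GGGCGG, a GC box, was in 2 keratin windows, those of Krt7 and Krt75, and in 32.7% of all promoters. TGANTCA, the site of AP-1 factors, was in both windows of Krt13 alone and in 6.75% of all promoters. Neither AACCNGTT, a site of grainyhead factors (1.79% of all promoters), nor ATGCAAAT, the octamer of POU factors (1.60%), was in a keratin window. No matches overlapped in the printed windows, and those of Krt8, Krt18 and Krt42 held none. These are letter matches in a window and say nothing of binding.

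The tables hold the authors' log2 changes, standard errors (SE) and adjusted p-values, and no values per sample. A gene counts as risen or fallen where the adjusted p is under 0.05, and values after ± are SE throughout. Size factors were recovered from the lowest base means, and depth was taken as size factor times the fit's sum of base means. So estimated, depth was 22.4 to 30.1 M reads per library for ESC-OB GFP+, 6.72 to 11.5 M in ESC-OB and 4.49 to 19.5 M in ESC. It was 10.1 and 17.7 M in iPSC-OB and 10.4 to 13.0 M in iPSC. The libraries' own read totals are not known and can differ from these values. For keratins with few reads the whole reads in each library were recovered too, with libraries named by depth, since none could be tied to a labelled sample. Levels in counts per 1000000 reads (CPM) are estimates per group, and 3 reads over a group set the floor below which a level is not read. By this reading 3 libraries lay on the iPSC side, where the labels give 2 samples. In the authors' deposited table Col1a1, the type I collagen gene of osteoblasts, rose by 8.95 ± 0.32 in ESC-OB GFP+, 7.87 ± 0.32 in ESC-OB and 1.62 ± 0.46 in iPSC-OB. Both ESC comparisons use the same ESC libraries.

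Keratin RNA was higher in the osteoblast cultures. Summed over the 42 genes, the estimated level was 8748 CPM in ESC-OB GFP+ and 3419 CPM in ESC-OB, against 54.4 CPM in ESC, and over 33 genes it was 2227 CPM in iPSC-OB, against 361 CPM in iPSC. In ESC-OB GFP+ against ESC, 20 keratins rose and 1 fell, 14 did not pass and 7 had no adjusted p. So 60.0% of the 35 with an adjusted p were called, near the background of 71.5% of 18588 genes, but 57.1% rose, where 39.1% of all genes rose and 32.4% fell. In ESC-OB against ESC, 20 rose, 1 fell, 12 did not pass and 9 had no adjusted p, which is 60.6% risen beside a background of 38.6% risen, 31.0% fallen and 69.6% called of 18208 genes. In iPSC-OB against iPSC, 14 rose, 1 fell, 11 did not pass and 7 had no adjusted p, which is 53.8% risen beside 26.1% risen, 23.1% fallen and 49.2% called of 17579 genes. The median fitted log2 change over all keratin rows was 3.18 in ESC-OB GFP+, 2.94 in ESC-OB and 0.96 in iPSC-OB, against 0.33, 0.22 and 0.17 over all genes. Many keratins lie under the floor on one side, where a fitted change is no bound. With such levels raised to the floor, and genes under it in both groups set to 0, the keratin medians were 1.32, 0.91 and 0.82. The members were chosen by name, and these shares carry no test of the list.

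All 6 simple keratins rose in each of the 3 comparisons, with median log2 changes of 8.77 in ESC-OB GFP+, 7.72 in ESC-OB and 3.83 in iPSC-OB (8.23, 7.23 and 3.86 with levels raised to the floor). In the authors' deposited table Krt8 rose by 8.22 ± 0.19 in ESC-OB GFP+, by 7.15 ± 0.19 in ESC-OB and by 1.92 ± 0.19 in iPSC-OB (adjusted p listed as 0, 2.49e-295 and 1.1e-22). Its partner Krt18 stood at 7.99 ± 0.20, 6.97 ± 0.20 and 2.72 ± 0.18 in the authors' deposited table (adjusted p listed as 0, 8.07e-264 and 1.15e-48). Both are expressed in undifferentiated iPSC at a far higher estimated level than in ESC. Krt8 was estimated at 604 CPM in iPSC-OB and 159 CPM in iPSC, and at 1181 CPM in ESC-OB GFP+, 562 CPM in ESC-OB and 3.96 CPM in ESC. Krt18 was estimated at 587 CPM in iPSC-OB and 89.0 CPM in iPSC, and at 942 CPM in ESC-OB GFP+, 464 CPM in ESC-OB and 3.71 CPM in ESC. The ESC and iPSC tables were normalised apart, so levels set across them carry no test. In these bulk samples fewer cells of a type and less RNA per cell cannot be told apart.

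Krt19, the smallest type I keratin, common in ducts and other linings, rose by 8.23 ± 0.36, 6.92 ± 0.36 and 2.11 ± 0.22 in the authors' deposited table (ESC-OB GFP+, ESC-OB and iPSC-OB; adjusted p = 2.16e-115, 1.44e-81 and 1.69e-20). Krt7, a type II keratin of glands and of mesothelium, rose by 9.91 ± 0.46, 8.29 ± 0.46 and 5.00 ± 0.55 in the authors' deposited table in the same order (adjusted p = 6.66e-100, 5.73e-70 and 1.19e-18). Their estimated levels were 1189 CPM (Krt19) and 986 CPM (Krt7) in ESC-OB GFP+, 480 and 321 CPM in ESC-OB, and 3.96 and 1.02 CPM in ESC. Krt20 and Krt23 lay under the floor in ESC, so their fitted changes rest on few reads there. Krt20, of gut and urothelial surface cells, was estimated at 28.2 CPM in ESC-OB GFP+ and 17.1 CPM in ESC-OB, at least 261-fold and 159-fold higher than the ESC floor of 0.108 CPM. Krt23 was estimated at 237 CPM in ESC-OB GFP+ and 80.5 CPM in ESC-OB, at least 2193-fold and 746-fold higher than that floor.

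**Figure D1:**
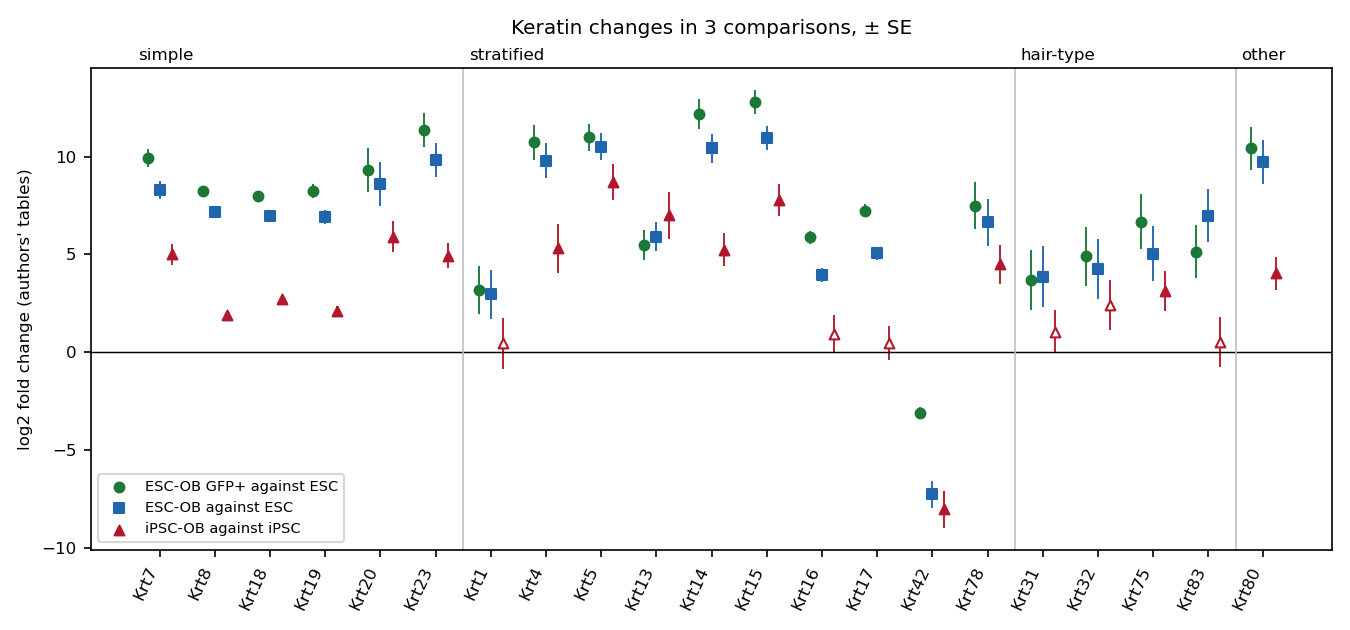
The log2 fold change of each called keratin is plotted with its SE for ESC-OB GFP+ against ESC (green circles), ESC-OB against ESC (blue squares) and iPSC-OB against iPSC (red triangles), grouped by class; open symbols did not pass the adjusted p of 0.05 or had none. Krt42 is the sole gene below 0, and Krt17 stands at 7.24 and 5.06 in the ESC comparisons but at 0.48 in iPSC-OB.

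In the iPSC table the reads of Krt20 and Krt23 could be recovered for each library. Krt20 had 486 and 62 reads in the deeper and shallower iPSC-OB library, against 2, 2 and 2 reads in the iPSC libraries. Krt23 had 140 and 175 reads in those iPSC-OB libraries, against 2, 4 and 5 reads in iPSC. Both iPSC-OB libraries thus lay above every iPSC library for both genes. The rises in the authors' deposited table were 5.89 ± 0.79 for Krt20 and 4.94 ± 0.65 for Krt23 (adjusted p = 1.17e-12 and 4.48e-13).

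Of 17 stratified keratins in the ESC tables, 9 rose and 1 fell in both ESC-OB GFP+ and ESC-OB, while 4 and 2 did not pass and 3 and 5 had no adjusted p. Of 16 in the iPSC table, 6 rose, 1 fell, 7 did not pass and 2 had no adjusted p. The share called of those with an adjusted p was 71.4% in ESC-OB GFP+, 83.3% in ESC-OB and 50.0% in iPSC-OB, so in ESC-OB GFP+ and iPSC-OB it lay at the background of 71.5% and 49.2%. The share risen was 64.3%, 75.0% and 42.9%, beside 39.1%, 38.6% and 26.1% of all genes. The basal-layer keratins Krt5, Krt14 and Krt15 rose in all 3 comparisons. Krt15 had the greatest rise of the plainly numbered keratins in both ESC comparisons, 12.80 ± 0.62 in ESC-OB GFP+ and 10.94 ± 0.62 in ESC-OB, and rose by 7.78 ± 0.82 in iPSC-OB in the authors' deposited table (with adjusted p = 8.1e-93, 6.04e-68 and 1.01e-19). Krt14 rose by 12.18 ± 0.76, 10.42 ± 0.76 and 5.24 ± 0.83 in the authors' deposited table (with adjusted p = 4.5e-57, 6.52e-42 and 2.05e-09). Krt5, the type II partner, rose by 10.98 ± 0.70, 10.51 ± 0.70 and 8.72 ± 0.92 in the authors' deposited table, the last being the greatest keratin rise in iPSC-OB (adjusted p = 8.67e-54, 3.96e-49 and 5.8e-20). In ESC these genes were near absent, at an estimated 0.288 CPM (Krt15), 0.168 CPM (Krt5) and 0.130 CPM (Krt14), close to the floor.

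The pair of wet stratified linings rose as well. Krt4 rose by 10.73 ± 0.90 in ESC-OB GFP+, 9.78 ± 0.90 in ESC-OB and 5.31 ± 1.27 in iPSC-OB in the authors' deposited table (with adjusted p = 3.53e-32, 8.43e-27 and 1.09e-04). Krt13 rose by 5.47 ± 0.77, 5.91 ± 0.77 and 6.99 ± 1.18 in the authors' deposited table (with adjusted p = 2.93e-12, 4.95e-14 and 2.6e-08). Krt13 was thus the sole keratin among those risen in all 3 whose value was higher in iPSC-OB than in both ESC comparisons. Estimated Krt13 levels were 133 CPM in ESC-OB GFP+, 180 CPM in ESC-OB and 2.99 CPM in ESC, and 218 CPM in iPSC-OB against 1.71 CPM in iPSC. Krt78, a type II keratin of the oesophagus and other stratified linings, rose by 7.48 ± 1.20, 6.63 ± 1.20 and 4.50 ± 1.01 in the authors' deposited table (with adjusted p = 1.08e-09, 8.31e-08 and 3.49e-05). Krt4 and Krt78 lay under the floor in ESC, so that in ESC-OB GFP+ they were at least 1493-fold and 158-fold higher than that floor and in ESC-OB at least 770-fold and 87.7-fold. Krt78 had 224 and 12 reads in the deeper and shallower iPSC-OB library, against 0, 3 and 2 reads in iPSC.

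Krt16 and Krt17, of appendages and wounded skin, rose in the ESC comparisons but did not pass in iPSC-OB. This does not hold for all such keratins, since Krt75 and the neighbours Krt6a and Krt6b rose in iPSC-OB too. Krt17 rose by 7.24 ± 0.34 in ESC-OB GFP+ and 5.06 ± 0.34 in ESC-OB, but stood at 0.48 ± 0.87 in iPSC-OB in the authors' deposited table (with adjusted p = 4.09e-100, 3.92e-49 and 0.671). Its estimated level was 740 CPM in ESC-OB GFP+, 163 CPM in ESC-OB and 4.90 CPM in ESC, and 25.3 CPM in iPSC-OB against 18.1 CPM in iPSC. Krt16 rose by 5.86 ± 0.34 and 3.95 ± 0.35 in the ESC comparisons and stood at 0.93 ± 0.95 in iPSC-OB in the authors' deposited table (with adjusted p = 6.48e-65, 1.17e-28 and 0.434). Its reads were 125 and 3 in the deeper and shallower iPSC-OB library, against 14, 31 and 15 in iPSC. The 2 iPSC-OB libraries thus lay on either side of the iPSC libraries. Krt14, Krt16, Krt17 and Krt42 are close relatives in sequence, as are Krt6a and Krt6b, and Krt8 and Krt18 have processed pseudogenes, so the authors' counting could have split or dropped some of their reads.

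Of the epidermal pair of the upper layers, Krt1 rose in both ESC comparisons and Krt10 passed in none. Krt10 stood at 0.51 ± 0.56, 0.44 ± 0.57 and 0.78 ± 0.65 in ESC-OB GFP+, ESC-OB and iPSC-OB in the authors' deposited table (with adjusted p = 0.41, 0.494 and 0.327). Its estimated level was 3.98 CPM in ESC-OB GFP+, 3.79 CPM in ESC-OB and 2.79 CPM in ESC. Its partner Krt1 rose by 3.16 ± 1.24 in ESC-OB GFP+ and 2.95 ± 1.26 in ESC-OB, and stood at 0.44 ± 1.29 in iPSC-OB in the authors' deposited table (with adjusted p = 0.0162, 0.0289 and 0.8). From the deepest to the shallowest library Krt1 had 21, 3 and 33 reads in ESC-OB GFP+, 12, 3 and 4 reads in ESC-OB, and 2, 0 and 0 reads in ESC. At the low end, 3 reads in an ESC-OB GFP+ or ESC-OB library stood near the 2 reads of the deepest ESC library. The sorted libraries ranged from 0.124 to 1.55 CPM among themselves. Both Krt1 calls were lost at an adjusted p of 0.01.

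The other stratified keratins were few in reads. Krt12 of the cornea, Krt76 and Krt79 did not pass in ESC-OB GFP+, with log2 changes of 0.94, 3.14 and 1.03 in the authors' deposited table. Krt76, of the palate and gums, had 8, 3 and 2 reads in ESC-OB GFP+ and 0 in all ESC-OB and ESC libraries. Krt12 and Krt9, a keratin of palm and sole skin, had more reads in iPSC than in iPSC-OB. Krt12 had 1 and 1 reads in iPSC-OB, against 6, 4 and 4 in iPSC, and Krt9 had 1 and 0 reads, against 3, 1 and 5. Their log2 changes were -1.77 ± 1.12 and -1.72 ± 1.26 in the authors' deposited table, short of the threshold (adjusted p = 0.184 and 0.257). Krt2, Krt24 and Krt77 had at most 2 reads in any library.

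Krt42 was the sole keratin that fell, and it fell in all 3 comparisons. It is a type I keratin known in the mouse from the nail unit, and a pseudogene in humans. In the authors' deposited table its log2 change was -3.09 ± 0.30 in ESC-OB GFP+, -7.27 ± 0.69 in ESC-OB and -8.04 ± 0.94 in iPSC-OB (adjusted p = 1.24e-24, 2.25e-25 and 2.07e-16). Its estimated level was 3.34 CPM in ESC-OB GFP+ and 0.185 CPM in ESC-OB, against 28.5 CPM in ESC. In iPSC-OB it lay under the floor of 0.114 CPM, against 18.5 CPM in iPSC, so it was at least 163-fold lower there. Per kilobase of transcript it was the most abundant keratin in ESC, at 18.5 CPM per kb and 55.1% of the keratin sum. In iPSC it was the fourth, at 12.0 CPM per kb and 5.67% of the sum, below Krt8, Krt18 and Krt19.

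Hair-type keratins were sparse throughout. Of the 17 in the ESC tables, 4 rose, none fell, 9 did not pass and 4 had no adjusted p in either ESC comparison, and of the 9 with a row for iPSC-OB, 1 rose, 3 did not pass and 5 had no adjusted p. The share called was 30.8% in each ESC comparison and 25.0% in iPSC-OB, below the backgrounds of 71.5%, 69.6% and 49.2%. Their summed estimated level was 8.33 CPM in ESC-OB GFP+ and 7.54 CPM in ESC-OB, against 0.453 CPM in ESC, under 1% of all keratin CPM in each group. Krt75, of the companion layer around the hair shaft, rose by 6.67 ± 1.40, 5.03 ± 1.42 and 3.12 ± 1.04 in ESC-OB GFP+, ESC-OB and iPSC-OB in the authors' deposited table (with adjusted p = 4.41e-06, 7.09e-04 and 0.00685). Krt75 lay under the floor in ESC, so it was at least 37.4-fold (ESC-OB GFP+) and 12.0-fold (ESC-OB) higher than that floor. It had 52 and 5 reads in iPSC-OB, against 1, 2 and 1 in iPSC. Krt83, of the hair cortex, rose by 5.14 ± 1.34 and 6.99 ± 1.34 in ESC-OB GFP+ and ESC-OB and stood at 0.52 ± 1.29 in iPSC-OB in the authors' deposited table (with adjusted p = 2.42e-04, 5.02e-07 and 0.767). Its estimated levels were 1.20 CPM in ESC-OB GFP+ and 4.33 CPM in ESC-OB, at least 11.2-fold and 40.1-fold higher than the ESC floor.

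The hair shaft keratins Krt31 and Krt32 rested on small numbers of reads. Krt32 had 55, 15 and 5 reads in ESC-OB GFP+, 12, 4 and 1 in ESC-OB, and 0 in all ESC libraries. Krt31 had 5, 7 and 9 reads in ESC-OB GFP+, 3, 4 and 2 in ESC-OB, and 0 in all ESC libraries. The shallowest ESC-OB library held only 1 read of Krt32 and 2 of Krt31, so 0 reads in the shallower ESC libraries may be under detection. Krt32 rose by 4.90 ± 1.51 in ESC-OB GFP+ and 4.24 ± 1.53 in ESC-OB in the authors' deposited table (with adjusted p = 0.00201 and 0.0089), and Krt31 by 3.69 ± 1.56 and 3.86 ± 1.58 (adjusted p = 0.0261 and 0.022). In iPSC-OB all 24 reads of Krt32 and all 4 of Krt31 lay in the deeper library, and Krt32, at 2.41 ± 1.28 by the authors' deposited table, fell short of the threshold (adjusted p = 0.108).

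Among the hair-type keratins that did not pass, several had reads in the differentiated libraries alone. Krt34 had 10, 7 and 2 reads in ESC-OB GFP+, 3, 2 and 0 in ESC-OB and 0 in all ESC libraries, and Krt85 had 2, 4 and 1, then 1, 1 and 1, then 0 in all. Krt39 had 0, 3 and 6 reads in ESC-OB GFP+, 2, 3 and 1 in ESC-OB and 0 in ESC, and Krt81 had 9, 2 and 4, then 2, 1 and 0, then 0. Krt25, an inner root sheath keratin, had 10, 5 and 2 reads in ESC-OB GFP+, 0 in ESC-OB and 0, 0 and 1 in ESC. Krt28, of the same sheath, ran the other way, with 2, 0 and 0 reads in ESC-OB GFP+, 0 in ESC-OB and 3, 1 and 1 in ESC, and 0 and 0 in iPSC-OB against 2, 3 and 2 in iPSC. Log2 changes of those with an adjusted p ranged from -2.26 (Krt28) to 3.41 (Krt34) in ESC-OB GFP+ and from -3.23 (Krt28) to 3.18 (Krt39) in ESC-OB in the authors' deposited table. The sorted libraries are the deepest, so a gene with reads in them alone may be under detection elsewhere.

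**Figure D2:**
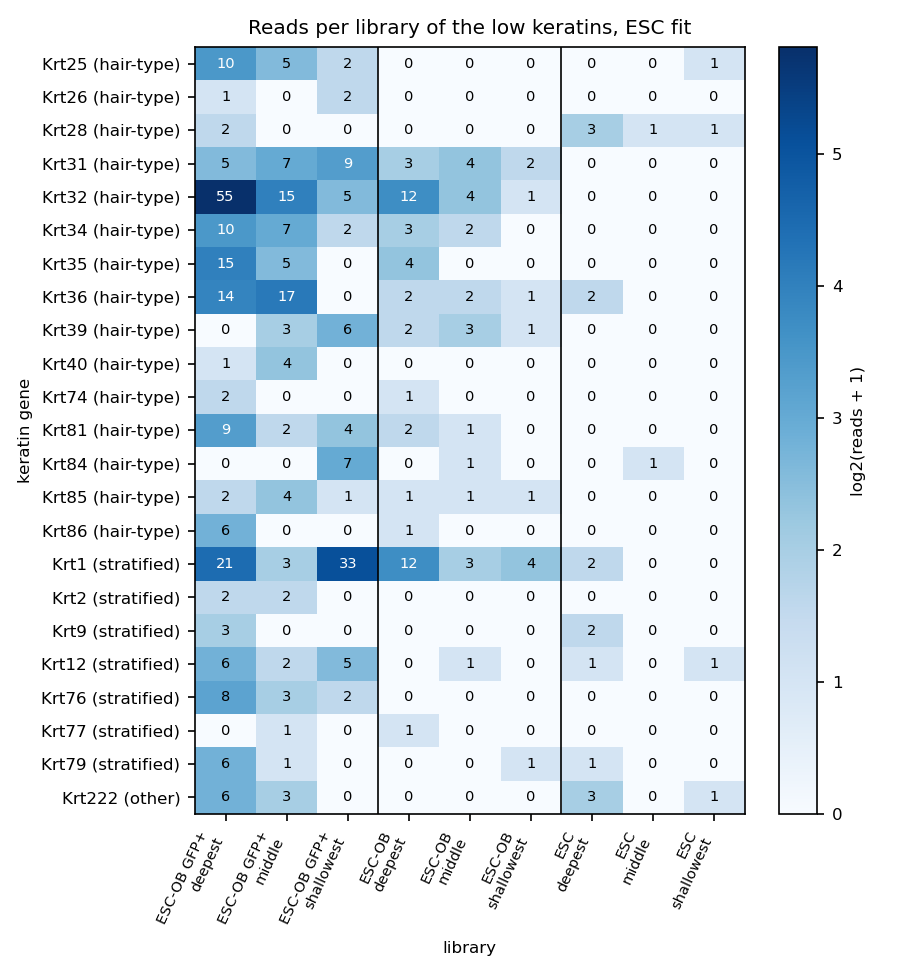
Whole reads recovered from the authors' base means are shown for 23 keratins with a base mean under 6, one row per gene and one column per library, with ESC-OB GFP+, ESC-OB and ESC from left to right and the deepest library first in each; colour is log2(reads + 1). Krt1 and Krt32 hold the most reads, up to 33 and 55 in a sorted library, and 14 rows hold 0 in all ESC libraries.

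Of the 2 keratins outside these classes, Krt80, found in many epithelia, rose by 10.42 ± 1.10, 9.72 ± 1.11 and 4.02 ± 0.83 in the authors' deposited table (ESC-OB GFP+, ESC-OB and iPSC-OB; adjusted p = 1.87e-20, 7e-18 and 6.53e-06). It was under the floor in ESC and at an estimated 72.0 CPM in ESC-OB GFP+ and 44.4 CPM in ESC-OB, at least 667-fold and 412-fold higher than that floor. It had 266 and 21 reads in iPSC-OB, against 6, 4 and 3 in iPSC. Krt222, an atypical short type I keratin, passed in none, with 6, 3 and 0 reads in ESC-OB GFP+, 0 in ESC-OB and 3, 0 and 1 in ESC. In the iPSC table it had 6 and 2 reads in iPSC-OB, against 13, 5 and 9 in iPSC.

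Corrected for transcript length, a few genes made up most RNA of the plainly numbered keratins in the differentiated groups. The neighbours with a letter suffix are left out of this order and of the keratin sums, though Krt6a was abundant. In the ESC fit its base mean, not corrected for length, was 5464, beside 5307 for Krt18 and 2202 for Krt5. In ESC-OB GFP+ the estimated level per kilobase was highest for Krt15 (1210 CPM per kb, 25.0% of the keratin sum), then Krt19 (755), Krt18 (655), Krt8 (603), Krt17 (477), Krt14 (355) and Krt7 (241). In ESC-OB it was 334 CPM per kb for Krt15, 323 for Krt18, 305 for Krt19 and 287 for Krt8, followed by 111 for Krt5 and 109 for Krt13. In iPSC-OB the simple pair led, at 408 CPM per kb for Krt18 and 308 for Krt8, with Krt19 at 159 and Krt13 at 132. Simple keratins held 52.1% of the keratin CPM in ESC-OB GFP+, 56.3% in ESC-OB and 23.5% in ESC, and 71.3% in iPSC-OB against 86.0% in iPSC. Stratified keratins held 46.9%, 42.2% and 75.3% in the first 3 groups, the last mostly Krt42, and 28.2% in iPSC-OB against 13.6% in iPSC. Of 42 keratins, 4 lay under the floor in ESC-OB GFP+, 15 in ESC-OB and 28 in ESC.

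Partners of the known pairs can be set side by side on the same scale, CPM per kb. Krt8 and Krt18 stood at 603 and 655 in ESC-OB GFP+, 287 and 323 in ESC-OB, and 2.02 and 2.58 in ESC. Krt5 stood at 155, 111 and 0.0765 CPM per kb in those groups, and Krt14 at 355, 105 and 0.0763. The values in ESC lie close to the floor, so their ratio is not read. Krt15, the other type I partner, exceeded Krt5 in ESC-OB GFP+ and ESC-OB. Krt4 and Krt13 stood at 75.5 and 80.2 CPM per kb in ESC-OB GFP+, 39.0 and 109 in ESC-OB, and 58.3 and 132 in iPSC-OB. Krt1 and Krt10 stood at 0.328 and 1.90 CPM per kb in ESC-OB GFP+ and 0.279 and 1.81 in ESC-OB, far below the basal pair. These ratios between genes are estimates for a group with no spread over samples.

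**Figure D3:**
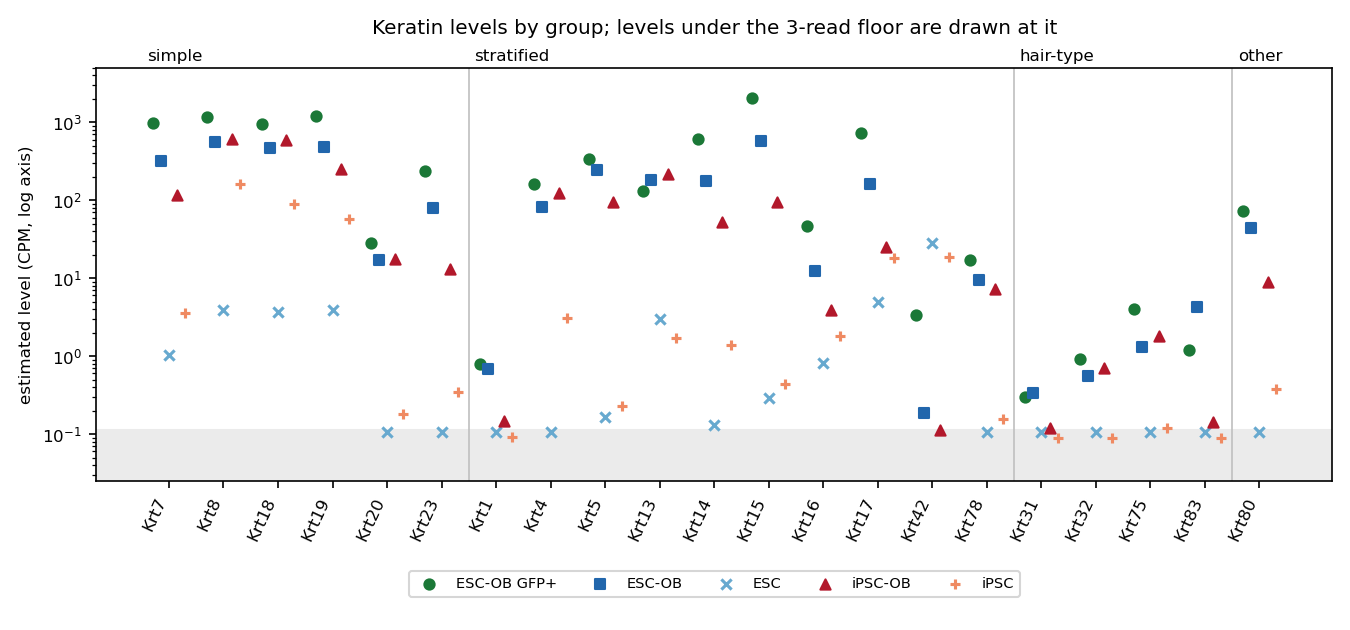
Estimated levels in CPM on a log axis are plotted for each called keratin in ESC-OB GFP+, ESC-OB, ESC, iPSC-OB and iPSC; values under a group's floor of 3 reads are drawn at that floor, and the grey band ends at the highest floor, 0.114 CPM. Krt8, Krt18, Krt19 and Krt7 are each higher in iPSC (3.61 to 159 CPM) than in ESC (1.02 to 3.96 CPM), and Krt42 is highest in ESC and iPSC (28.5 and 18.5 CPM).

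The iPSC-OB libraries were uneven in keratins. In CPM, the deeper library held 28.9 of Krt20, 13.3 of Krt78, 15.8 of Krt80, 7.44 of Krt16, 6.73 of Krt10, 3.10 of Krt75 and 1.43 of Krt32, where the shallower one held 6.46, 1.25, 2.19, 0.313, 1.77, 0.521 and 0. Krt23 ran against this, at 8.33 CPM in the deeper and 18.2 CPM in the shallower library. The fit of iPSC-OB rests on these 2 differentiated libraries. Among keratins whose reads were solved, both libraries were above every iPSC library in CPM for Krt20, Krt23, Krt75, Krt78 and Krt80. The same held for Krt84, which was not called and lay under the floor with 1 read in each. Both libraries were below every iPSC library for Krt9, Krt12, Krt28, Krt71, Krt79 and Krt222, which were few in reads and not called. For Krt10 and Krt16 the shallower library was below all 3. How many of all genes separate in this way was not counted.

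The change in ESC-OB GFP+ was set against that in ESC-OB. The sorted libraries are also deeper, and the labels do not say which samples had the low-input kit. Effects of the sort on the collagen reporter cannot be told apart from these. The difference of the 2 log2 changes was tested with SE from both, adjusted over 19739 genes, and 6 of 42 keratins were higher and none lower. That is 14.3%, beside a background of 22.8% of all genes called, made up of 10.7% of all genes positive and 12.1% negative. The median difference was 0.96 over keratins and 0.05 over all genes, with low genes and their shrunken changes included in both. Krt8 was 1.07 ± 0.27 log2 units higher in the sorted change, Krt18 1.02 ± 0.28 and Krt19 1.31 ± 0.51 (z test, adjusted p = 7.86e-04, 0.00223 and 0.0436). Krt17 was 2.18 ± 0.48 and Krt16 1.92 ± 0.49 higher (adjusted p = 6.12e-05 and 7.67e-04). Krt42 differed by 4.17 ± 0.75 (adjusted p = 4.79e-07), that is, it fell less in the sorted cells. Krt7 (1.62 ± 0.66), Krt15 (1.86 ± 0.88) and Krt14 (1.76 ± 1.07) had positive differences short of the threshold (adjusted p = 0.0571, 0.122 and 0.277). Krt13 stood at -0.44 ± 1.08 and Krt83 at -1.85 ± 1.90, both short of the threshold. Since both changes share the ESC libraries, their errors are not independent and the SE used here is too wide. With an assumed correlation of 0.5 Krt7 and Krt15 passed too.

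The change in iPSC-OB was set against that in ESC-OB. The source of the pluripotent cells goes here with passage range, with a separate fit and with a smaller rise of Col1a1 in iPSC-OB. These cannot be told apart. Of 31 keratins 12 were lower in the iPSC-OB change and none higher. That is 38.7%, beside a background of 28.2% of 18597 genes called, made up of 17.2% of all genes negative and 11.0% positive. The median difference was -2.38 over keratins and -0.07 over all genes. Of the simple keratins 5 of 6 were lower, Krt8 by -5.23 ± 0.27, Krt19 by -4.81 ± 0.42, Krt18 by -4.24 ± 0.27, Krt23 by -4.88 ± 1.09 and Krt7 by -3.29 ± 0.72 (z test, adjusted p = 1.3e-79, 5.22e-28, 1.08e-52, 8.01e-05 and 4.71e-05). The estimated levels behind this were 604 and 159 CPM of Krt8 in iPSC-OB and iPSC, and 562 and 3.96 CPM in ESC-OB and ESC. Of the stratified keratins Krt14 (-5.18 ± 1.12), Krt17 (-4.57 ± 0.93), Krt4 (-4.47 ± 1.55), Krt15 (-3.16 ± 1.03) and Krt16 (-3.01 ± 1.02) were lower (adjusted p = 4.3e-05, 1.18e-05, 0.0177, 0.0108 and 0.0141). Krt80 (-5.70 ± 1.38) and Krt83 (-6.47 ± 1.86) were lower too (adjusted p = 3.23e-04 and 0.00308). Krt20 (-2.71 ± 1.39), Krt5 (-1.79 ± 1.16), Krt42 (-0.78 ± 1.16) and Krt13 (1.08 ± 1.41) did not pass. The deposited SE level off at 1.29 in the iPSC table and 1.89 in the ESC tables, as where changes of low genes are shrunk towards 0 and more so in the iPSC table, and the part of this in the negative differences was not tested. Krt8, Krt18, Krt19 and Krt7 have base means above 100 in both tables and passed among such genes too.

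**Figure D4:**
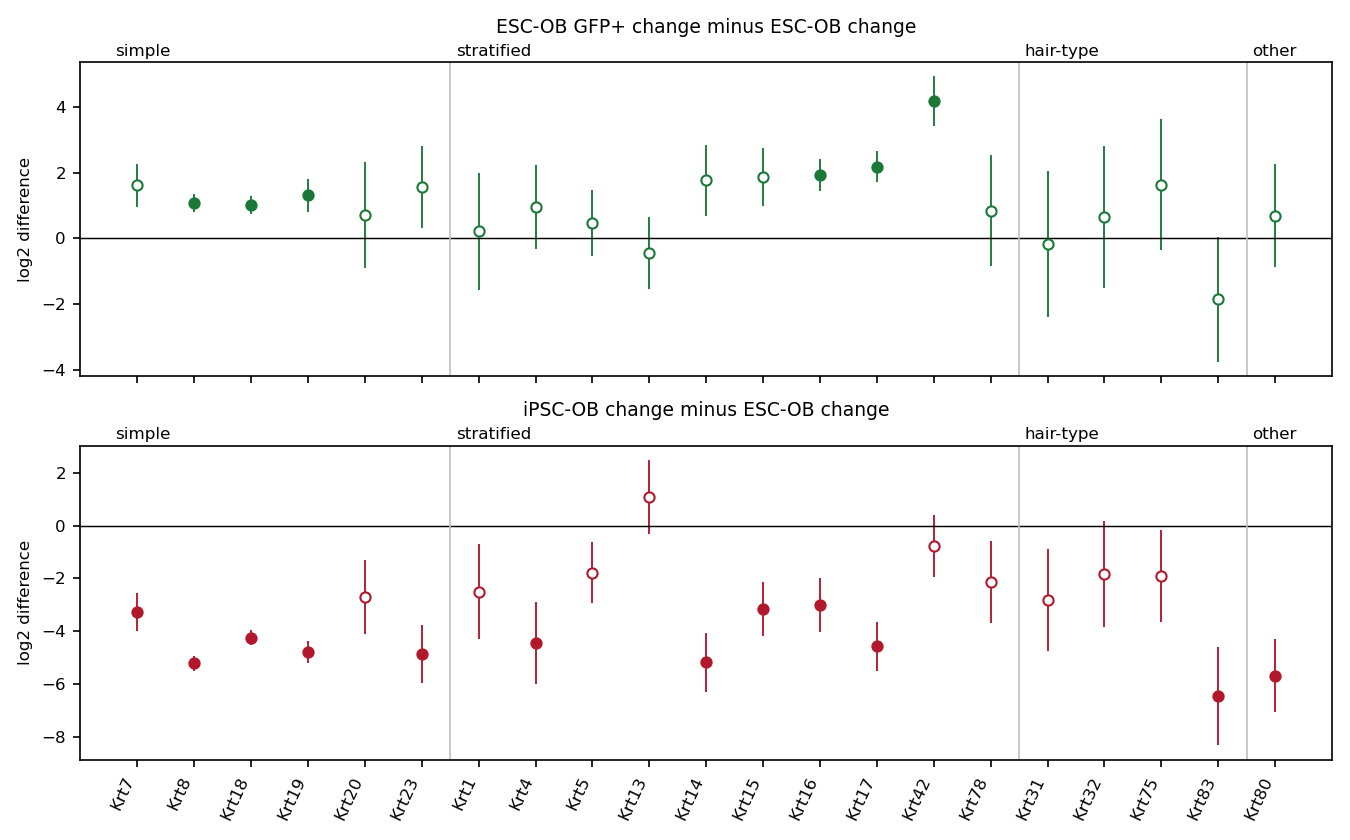
Differences between log2 changes are plotted with SE for each called keratin, ESC-OB GFP+ minus ESC-OB above and iPSC-OB minus ESC-OB below; filled circles passed an adjusted p of 0.05. In the upper panel 6 filled circles lie above 0, up to 4.17 for Krt42, and in the lower panel 12 lie below 0, down to -6.47 for Krt83.

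Along the chromosomes, risen keratins stood beside ones that did not pass. RefSeq lists 27 keratin genes, letter suffixes included, on each of chromosomes 11 and 15. On chromosome 11 the run Krt13, Krt15, Krt19, Krt9, Krt14, Krt16, Krt17 and Krt42 ends the cluster. All but Krt9 were called in both ESC comparisons, and Krt42, the last of the 27, is the direct neighbour of Krt17, which rose. The hair-type block between Krt39 and Krt36 has Krt31 and Krt32 called side by side. On chromosome 15 Krt75, Krt6b, Krt6a and Krt5 are neighbours and rose together. Krt6a stood at 13.19 ± 1.07, 12.63 ± 1.07 and 6.93 ± 1.13 and Krt6b at 11.02 ± 1.15, 9.71 ± 1.15 and 7.27 ± 1.01 in ESC-OB GFP+, ESC-OB and iPSC-OB in the authors' deposited table, all past the threshold. Krt8 and Krt18, of opposite type and on opposite strands, end this cluster.

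**Figure D5:**
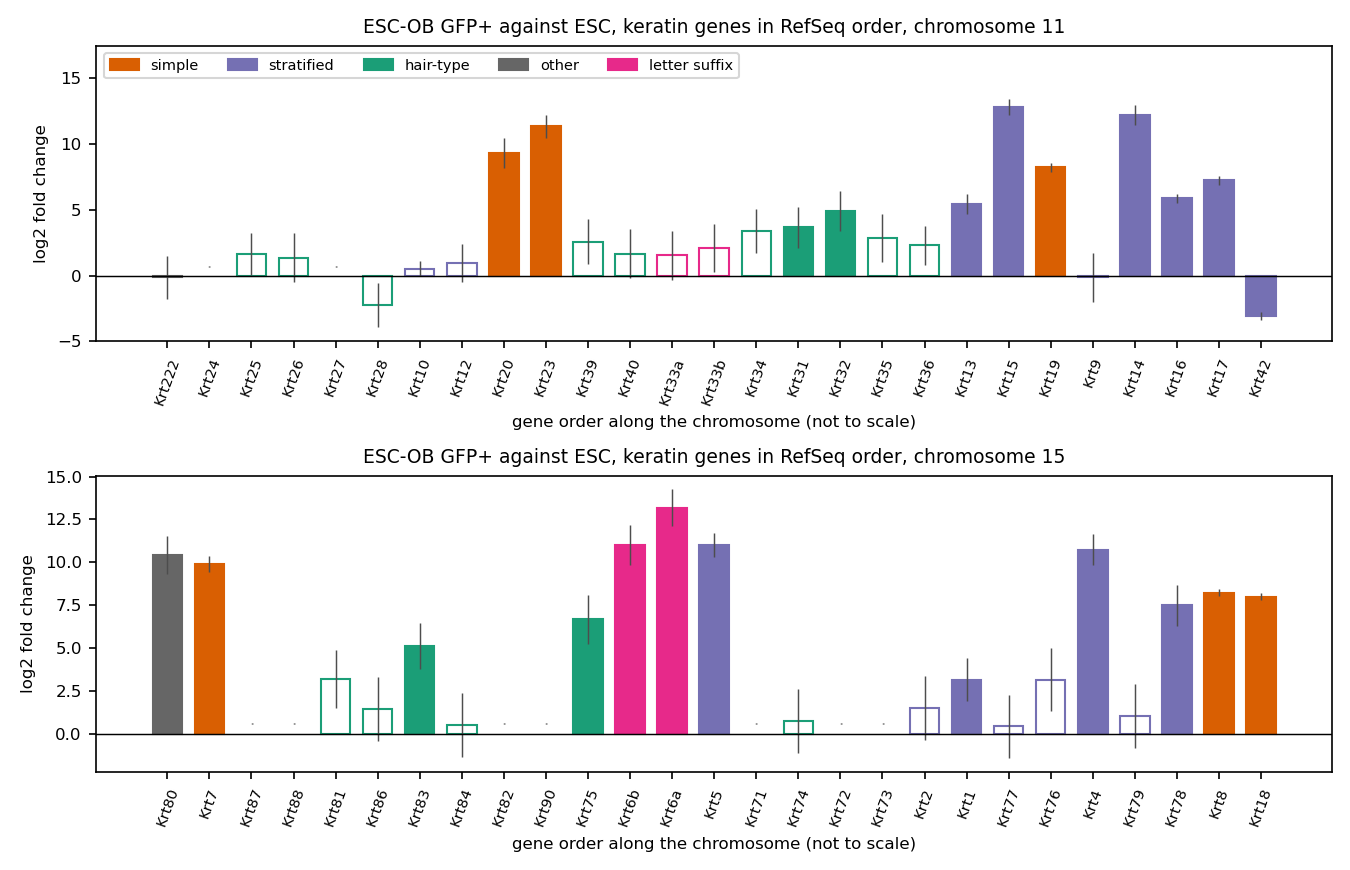
Log2 changes in ESC-OB GFP+ against ESC are drawn as bars with SE for keratin genes in RefSeq order, chromosome 11 above and chromosome 15 below, coloured by class with letter-suffixed genes apart; filled bars passed an adjusted p of 0.05 and a dot marks a gene with no row. Krt42 at the end of the upper row, at -3.09, stands next to Krt17 at 7.24.

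Genes that anchor and organise keratin filaments are given beside them. All lists below are read against the share of all genes called, 71.5% in ESC-OB GFP+, 69.6% in ESC-OB and 49.2% in iPSC-OB. Of 11 desmosome genes with a row for ESC-OB, 9 rose and 1 fell in both ESC-OB GFP+ and ESC-OB (medians 2.86 and 3.31), and in iPSC-OB, where 11 had an adjusted p, 7 rose and 1 fell (median 1.55). Pkp1, a plakophilin of stratified epithelia, rose by 10.11 ± 1.10, 10.39 ± 1.10 and 4.34 ± 0.67, and Dsg3, a desmoglein of the basal layers, by 10.41 ± 1.11, 10.10 ± 1.11 and 5.70 ± 0.90 in the authors' deposited table. Pkp1 and Dsg3 lay under the floor in ESC, so their fitted changes in the ESC comparisons are no bounds. Dsc2, a desmocollin, rose by 6.17 ± 0.74, 5.50 ± 0.74 and 1.67 ± 0.58 in the authors' deposited table. Dsg2, the desmoglein of simple epithelia, fell, and the authors' deposited table gives it -1.07 ± 0.25 in ESC-OB GFP+ and -1.08 ± 0.25 in ESC-OB. Of 8 linkers and organisers 5 rose and 1 fell in ESC-OB GFP+, 6 rose and 2 fell in ESC-OB, and 4 rose in iPSC-OB. The desmosome genes were called in 90.9%, 90.9% and 72.7% of cases in that order of groups, and the linkers in 75.0%, all and 50.0%, the first and last near the background. The plakins Ppl and Evpl rose by 7.60 ± 0.75 and 4.84 ± 0.65 in ESC-OB GFP+ in the authors' deposited table. Dsp and Plec, which tie keratins to desmosomes and hemidesmosomes, were lower in the sorted than in the unsorted change by -2.20 ± 0.39 and -1.32 ± 0.23 (adjusted p = 3.42e-07 and 1.91e-07). Perp, a desmosomal membrane gene, and Krtcap3 of the same lists were higher in the sorted change, by 1.00 ± 0.34 and 1.40 ± 0.54 (adjusted p = 0.0197 and 0.0429). In all, 1 of the desmosome genes was higher and 1 lower in the sorted change, and 1 of the linkers was higher and 3 lower. That is 18.2% and 50.0% called, beside 22.8% of all genes for this difference.

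Of 12 epithelial regulators 9 rose and none fell in ESC-OB GFP+, 8 rose and 4 fell in ESC-OB, and 4 rose and 3 fell in iPSC-OB, so 75.0%, all and 58.3% were called. Trp63, the factor of basal cells that drives Krt5 and Krt14, rose by 7.37 ± 0.64, 7.18 ± 0.64 and 4.51 ± 0.96 in the authors' deposited table. Ovol1 and Esrp1 rose by 7.03 ± 0.53 and 4.46 ± 0.38 in ESC-OB GFP+ and by 5.18 ± 0.54 and 4.72 ± 0.38 in ESC-OB, and were at -0.67 ± 0.60 (short of the threshold) and -1.91 ± 0.37 in iPSC-OB in the authors' deposited table. Of 12 surface and junction genes 11 rose and 1 fell in ESC-OB GFP+, 9 and 1 in ESC-OB, and 5 and 2 in iPSC-OB, so all, 83.3% and 58.3% were called. Ocln, a tight junction gene, rose by 6.23 ± 0.35, 5.39 ± 0.35 and 2.38 ± 0.32, and Cldn7, a claudin, by 6.40 ± 0.39 and 4.69 ± 0.39 with 0.08 ± 0.43 in iPSC-OB, in the authors' deposited table. Cdh1 (E-cadherin), which pluripotent cells also carry, fell, with log2 changes of -0.68 ± 0.24, -1.23 ± 0.24 and -2.10 ± 0.40 in the authors' deposited table. Epcam, also shared with pluripotent cells, was at 0.86 ± 0.21, -0.09 ± 0.21 and -1.44 ± 0.17 in the authors' deposited table, and the ESC-OB value did not pass.

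Genes of late epidermal layers and of hair are counted next. Of 10 cornified envelope genes with a row for ESC-OB, 7 rose and 1 fell in ESC-OB GFP+ and 6 rose and 1 fell in ESC-OB, and 5 rose and 1 fell of 10 in iPSC-OB, which is 88.9%, 77.8% and 60.0% called of those with an adjusted p. Sprr1a, an envelope precursor, rose by 8.85 ± 0.96, 8.47 ± 0.96 and 4.59 ± 0.64, Cnfn by 8.66 ± 1.27, 7.69 ± 1.27 and 4.78 ± 1.28, and Sprr3 by 5.61 ± 1.33, 6.97 ± 1.33 and 6.25 ± 1.09 in the authors' deposited table. Of 10 hair shaft and follicle genes 2 rose and 4 fell in ESC-OB GFP+, 1 rose and 4 fell in ESC-OB, and 2 rose and 3 fell of 9 in iPSC-OB. That is 66.7%, 55.6% and 62.5% called, below the background in both ESC comparisons. Of the envelope genes named, Sprr1a, Cnfn and Sprr3 lay under the floor in ESC, so their fitted changes in the ESC comparisons are no bounds. Hoxc13, a factor of hair shaft keratins, fell in both ESC comparisons (-4.63 ± 0.49 and -2.79 ± 0.48) and stood at 1.11 ± 0.94 in iPSC-OB, and Padi3 fell in all 3 (-3.61 ± 0.79, -2.93 ± 0.82 and -3.00 ± 0.68), as the authors' deposited table gives them. Msx2, which bone and follicle share, rose by 3.86 ± 0.52, 3.45 ± 0.53 and 2.36 ± 0.39 in the authors' deposited table.

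Markers of epithelia that carry these keratins mostly rose against the stem cells too, and their part in the keratin changes was not tested. In the sorted change against the unsorted one, 1 basal keratinocyte gene was higher and 2 lower. For airway genes it was 0 and 1, and for mesothelium genes 1 and 0. That is 37.5%, 12.5% and 14.3% called, beside 22.8% of all genes. Of 8 basal keratinocyte genes 7 rose in each comparison, and Dst, a linker of hemidesmosomes that other cells express too, did not. Dst fell in both ESC comparisons (-2.41 ± 0.17 in ESC-OB GFP+ and -0.53 ± 0.17 in ESC-OB) and stood at 0.11 ± 0.30 in iPSC-OB, per the authors' deposited table. Besides Trp63 these were led by Lamb3 (6.68 ± 0.31, 5.71 ± 0.31 and 1.92 ± 0.41) and Col17a1 (5.63 ± 0.36, 5.07 ± 0.36 and 3.21 ± 0.67) in the authors' deposited table. Of 8 airway genes 7 rose in ESC-OB GFP+ and 8 in ESC-OB, and 5 of 7 in iPSC-OB (87.5%, all and 71.4% called), with summed estimated levels of 2733, 1350 and 1.62 CPM in ESC-OB GFP+, ESC-OB and ESC, and of 65.8 CPM in iPSC-OB against 3.28 CPM in iPSC. Scgb1a1, the club cell secretory gene, rose by 9.48 ± 0.93 and 9.38 ± 0.93 in the ESC comparisons and stood at 2.15 ± 1.28 in iPSC-OB, and Cyp2f2 rose by 13.52 ± 0.86, 12.30 ± 0.86 and 7.28 ± 0.95 in the authors' deposited table. Ltf and Bpifa1 rose by 12.88 ± 0.84 and 13.01 ± 1.03 in ESC-OB GFP+ in the authors' deposited table. Of 7 mesothelium genes 6 rose and 1, Lrrn4, fell in each comparison, with summed levels of 2720, 1028 and 40.8 CPM in ESC-OB GFP+, ESC-OB and ESC, and 123 CPM in iPSC-OB against 34.9 CPM in iPSC. Msln, mesothelin, rose by 6.26 ± 0.37, 4.85 ± 0.37 and 4.99 ± 0.60, and Upk1b by 12.97 ± 0.87, 11.40 ± 0.87 and 6.49 ± 0.90 in the authors' deposited table. Gpm6a rose by 8.47 ± 1.16, 8.95 ± 1.16 and 3.53 ± 0.66 and Upk3b by 7.22 ± 0.44, 6.19 ± 0.44 and 3.50 ± 0.52 in the authors' deposited table. Under the floor in ESC were 5 of the airway and 2 of the mesothelium genes, and none in the differentiated groups.

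Trophectoderm, the first embryonic epithelium with Krt8 and Krt18, showed no common direction. Of its 8 genes 4 rose and 4 fell in ESC-OB GFP+, 3 and 4 in ESC-OB, and 2 and 3 in iPSC-OB, so all, 87.5% and 62.5% were called. Cdx2, its defining factor, fell in both ESC comparisons (-4.30 ± 1.01 and -3.64 ± 1.04) and stood at 0.35 ± 0.78 in iPSC-OB, per the authors' deposited table. Tfap2c (-3.43 ± 0.31, -4.27 ± 0.33 and -4.36 ± 0.29) and Ascl2 (-2.45 ± 0.59, -3.79 ± 0.76 and -3.46 ± 0.73) fell in all 3, again from the authors' deposited table. Psca, also a gene of other epithelia, rose by 12.09 ± 1.04, 10.43 ± 1.04 and 9.91 ± 0.93 in the authors' deposited table. Among 14 other intermediate filament genes 4 rose and 6 fell in ESC-OB GFP+, 7 and 5 in ESC-OB, and 4 and 7 in iPSC-OB. That is 71.4%, 85.7% and 78.6% called, the first at the background. Vim, the filament of mesenchymal cells, stood at 0.59 ± 0.33, 1.52 ± 0.33 and 1.13 ± 0.21 in the authors' deposited table, the first short of the threshold (adjusted p = 0.096). Gfap rose by 4.81 ± 0.95, 8.39 ± 0.95 and 6.02 ± 0.83, while the neuronal Ina (-9.34 ± 0.98, -7.29 ± 0.89 and -4.05 ± 0.55) and Nefh (-8.51 ± 0.90, -4.95 ± 0.61 and -6.02 ± 0.50) fell in the authors' deposited table.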

How the data were processed

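The submitters' processing notes name STAR 2.4.2a, mm9, DESeq2 and R 3.2.2, without roles, filters or a design. The 3 deposited tables hold, per the file headers, a base mean (a signal: counts over size factors, averaged over the libraries of the authors' fit), a log2 fold change with SE, the test's score, and its p-value before and after adjustment, all made by the authors. The direction is not stated in the headers. Pou5f1, Nanog and Esrrb are strongly negative in each deposited log2 column, so positive was read as higher in differentiated cells. Base means are identical in both ESC tables, which thus come from 1 fit of 9 libraries, and the iPSC table from a fit of 5. There were 0 columns of per-sample values, which leaves count tests, left-out replicates and paired fits not run.

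The members and gene lists were chosen with earlier results of these data known. Every keratin past an adjusted p of 0.05 in any comparison is named with its values. Of the other lists, the 3 called genes with the largest absolute change in ESC-OB are named, with Trp63, Scgb1a1, Msln, Cdx2, Epcam and Cdh1. A gene that this rule names is not reported here. Dsg2, Dsp, Perp, Krtcap3, Dst, Lrrn4 and Vim were added after their values were seen. Differences between changes were tested with a z test and Benjamini-Hochberg adjustment over all genes (Python 3.11.15, pandas 2.3.3, numpy 2.4.6, scipy 1.17.1), checked on simulated data.

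The value of 1 read in each library was found from the lowest base means. Whole reads explained all 474 distinct base means used in the ESC fit and all 165 in the iPSC fit. Reads per library were then solved for 23 keratins with a base mean under 6 in the ESC fit and 22 under 100 in the iPSC fit, each with 1 solution (relative tolerance 2e-14). The side of a library came from the sign of the authors' changes for genes with reads in it alone. Levels in CPM were computed from base means and changes, or as means of recovered reads over size factors. Their total was the fit's sum of base means without Rn45s, not each library's own reads. Reading the iPSC side as 3 libraries was chosen after the base means were examined. Floors of 3 reads were 0.0406 (ESC-OB GFP+), 0.113 (ESC-OB), 0.108 (ESC), 0.114 (iPSC-OB) and 0.0898 CPM (iPSC) and cover counting error only. Levels per kb use the longest protein-coding GENCODE M21 transcript, found for 42 of the 44 keratins. RefSeq held 43 of the 44 symbols, and as its build differs from mm9, only gene order and printed promoters were taken from it.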

Additional observations from a re-analysis of the deposited data

Results flagged for a closer look

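The keratins below stood out because their change differed between 2 comparisons by a test of the difference itself (z test, adjusted over all genes). No explanation was weighed.

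Between the sorted and unsorted ESC-OB changes, the log2 difference was 1.07 for Krt8, 1.02 for Krt18, 1.31 for Krt19, 1.92 for Krt16, 2.18 for Krt17 and 4.17 for Krt42, each change being higher in ESC-OB GFP+. For Krt42 this is a smaller fall. Its estimated level was 3.34 CPM in ESC-OB GFP+ and 0.185 CPM in ESC-OB. Krt17, its neighbour on chromosome 11 and a close relative in sequence, was estimated at 740 CPM in ESC-OB GFP+ and 163 CPM in ESC-OB, and whether reads of Krt17 were counted for Krt42 was not tested.

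Between the iPSC-OB and ESC-OB changes, the log2 difference was -5.23 for Krt8, -4.81 for Krt19, -4.24 for Krt18, -4.88 for Krt23, -3.29 for Krt7, -5.18 for Krt14, -4.57 for Krt17, -4.47 for Krt4, -3.16 for Krt15, -3.01 for Krt16, -5.70 for Krt80 and -6.47 for Krt83. It is the change that was lower in each case, and estimated levels in iPSC-OB need not be: Krt8, Krt18 and Krt4 stood at 604, 587 and 124 CPM in iPSC-OB and at 562, 464 and 83.1 CPM in ESC-OB. Krt19 and Krt7 were lower in iPSC-OB, at 250 and 115 CPM, than in ESC-OB, at 480 and 321 CPM. In the undifferentiated cells Krt8, Krt18, Krt19 and Krt7 stood at 159, 89.0, 57.8 and 3.61 CPM in iPSC and at 3.96, 3.71, 3.96 and 1.02 CPM in ESC. Krt17 stood at 18.1 CPM in iPSC and 4.90 CPM in ESC, and Krt4 at 3.13 CPM in iPSC and under the floor in ESC. ESC and iPSC values were normalised apart, and the part of these levels in the differences was not tested. Krt13, at 1.08 ± 1.41, was the sole keratin among the called ones with a positive difference, and it did not pass (adjusted p = 0.628).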

How the results depend on the processing

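Counts of called keratins stayed within 1.5 times of the reported ones under each setting run. They were 18 to 21 against 21 in both ESC comparisons, 14 to 15 against 15 in iPSC-OB, 5 to 8 against 6 between the sorted and unsorted changes, and 8 to 12 against 12 between the iPSC-OB and ESC-OB changes. No value changed its sign, and of 454 settings of single genes 443 kept their side of the threshold. Another 3 gained a call and 8 lost one, where genes left out by a base mean minimum are not counted as lost. At an adjusted p of 0.01 Krt1 and Krt31 lost their calls in both ESC comparisons, Krt19 lost its sorted difference, and Krt4, Krt15 and Krt16 lost their iPSC difference. A base mean of at least 10 left out Krt1, Krt31 and Krt32, Krt75 in the iPSC table, and Krt83 in the iPSC difference, and brought in Krt7 in the sorted difference. A correlation of 0.5 between the estimates brought in Krt7 and Krt15 there, and raised the calls over all genes to 6980, against 4502. A base mean of at least 100 left out Krt16, Krt23, Krt80 and Krt83 in the iPSC difference, with 3384 calls over all genes, against 5246. Re-centring on the median gene (0.19 in ESC-OB, 0.21 in ESC-OB GFP+ and 0.06 in iPSC-OB) moved no keratin call. Over all genes it gave 2571 higher and 2902 lower iPSC differences, against 2049 and 3197. Counting Krt42 as hair-type gave 2 hair-type calls in iPSC-OB, against 1. With 2 libraries a side in the iPSC fit, levels were 0.80 to 1.20 of those given. Leaving out single replicates was not run, since no file used here holds values per sample. No paired analysis was possible because the tables carry no values per sample for a replicate block. Depth limits the hair-type keratins most, with 16 of 17 under the floor in ESC.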
